A study of Homo sapiens with 6 samples.

Results

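DHRS9, a retinol dehydrogenase, and the genes that make, bind, clear and sense retinoic acid were compared in colorectal cancer cells that carry a guide RNA against HPSE (SW480-KD1) and in their controls (SW480-NC). The members were chosen by gene symbol, as 10 genes that encode retinol and retinal dehydrogenases, a retinoid-binding protein, a clearing enzyme and receptors. Of these 10, 8 were found by Ensembl identifier among the 59192 features of the table, and RDH11 and ALDH1A3 could not be matched to a row and were not analysed here. DHRS9 was singled out because it was much lower in SW480-KD1 in these same libraries, so its difference is given as a description with no test. The other genes were listed by function, with earlier results of these data known.

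SW480 is a cell line from a human colorectal adenocarcinoma. Both lines carried Cas9 from a lentivirus under puromycin selection. They then received a second lentivirus with EGFP and a guide RNA, which targeted HPSE in SW480-KD1 (labelled SW480-45) and was a control guide in SW480-NC. RNA came from 3 independent experiments per line, and neither the labels nor the study's methods say that a line was grown from 1 clone. Each group is 1 line, so the spreads and p-values here describe variation between experiments of a line. An effect of the guide and a trait of the particular line cannot be told apart. The paper's other knockdown line, SW480-KD2, is not among the samples. HPSE encodes heparanase, which cleaves heparan sulfate. Mean HPSE RNA was 270.1 ± 24.3 normalized counts in SW480-NC and 152 ± 18.8 in SW480-KD1 (SD, n = 3 each). The RNA of the targeted gene was thus at 56.1% of the control level, with an adjusted p of 0.0547 from limma. The paper determined HPSE protein by western blot and reports an efficient knockdown. RNA level does not measure the protein that is left after editing.

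Vitamin A reaches cells as retinol, which retinol dehydrogenases oxidize to retinal. Aldehyde dehydrogenases of the ALDH1A family oxidize retinal to retinoic acid, the ligand of the nuclear receptors RARA, RARB and RARG. CRABP2 carries retinoic acid to these receptors, enzymes of the CYP26 family break it down, and DHRS3 reduces retinal back to retinol. The gut epithelium takes up dietary vitamin A, and retinoic acid is known to influence the differentiation of its cells.

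The libraries held 33221323 to 39802365 reads on the features. Values are normalized counts, which are reads divided by 1 size factor per library, and 1 read was worth between 0.903 and 1.06 normalized counts. Differences are log2 fold changes of log2(normalized count + 1), with SW480-KD1 minus SW480-NC, from limma. A gene was called when its p, adjusted by the Benjamini-Hochberg method, was under 0.05. The adjustment ran over the 21703 features whose mean reached 10 normalized counts. At this threshold 174 features (0.802%) were called, of which 72 (0.332%) were higher and 102 (0.470%) lower in SW480-KD1. In 23.4% of features no library of SW480-KD1 fell within the range of SW480-NC or the reverse, so that the groups did not overlap. Of the colon epithelium markers, EPCAM, KRT8 and VIL1 were at 7576 normalized counts or more in every library. The transcription factor CDX2 was low, at 19.0 to 40.3. KRT20, a keratin of mature intestinal epithelium, fell from 7952 ± 619 to 4541 ± 82.3 (SD, n = 3 each; adjusted p = 0.00719 from limma). Fibroblast and endothelial markers were low, with COL1A2 at 0 to 1.05 and PECAM1 at 9.03 to 30.6 normalized counts. COL1A1 was the exception, at 198 to 359. KRT18, CDH1, DCN and the leukocyte markers PTPRC and CD3E could not be matched to a row.

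Promoter windows of DHRS9 and DHRS3 are shown because these genes belong to the same enzyme family and differed in opposite directions. Each window runs from 250 bases before to 50 bases after a start site that RefSeq annotates on GRCh38.p14, and 9 of the 10 members had an entry, with 16 windows between them. RDH10 had none. DHRS9 has 4 annotated starts on the plus strand of chromosome 2. In the first window below the capitals mark TATAAA. In the other two windows they mark hexamers of the kind that retinoic acid receptors bind, searched as AGGTCA or AGTTCA or GGGTCA or GGTTCA on both strands.
DHRS9, the first start, chr2:169066827-169067126, plus strand: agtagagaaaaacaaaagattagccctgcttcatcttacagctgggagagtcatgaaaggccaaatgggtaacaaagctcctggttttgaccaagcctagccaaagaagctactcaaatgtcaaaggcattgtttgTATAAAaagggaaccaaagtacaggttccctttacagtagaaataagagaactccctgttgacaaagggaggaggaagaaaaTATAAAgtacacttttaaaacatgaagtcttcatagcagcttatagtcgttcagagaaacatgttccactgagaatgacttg
DHRS9, the fourth start, chr2:169080857-169081156, plus strand: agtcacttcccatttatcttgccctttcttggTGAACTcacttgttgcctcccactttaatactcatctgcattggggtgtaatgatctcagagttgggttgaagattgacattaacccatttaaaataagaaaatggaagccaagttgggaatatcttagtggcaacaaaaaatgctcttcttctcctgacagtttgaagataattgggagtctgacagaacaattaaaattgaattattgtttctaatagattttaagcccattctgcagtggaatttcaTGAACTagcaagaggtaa
DHRS3, the second start, chr1:12616740-12617039, minus strand: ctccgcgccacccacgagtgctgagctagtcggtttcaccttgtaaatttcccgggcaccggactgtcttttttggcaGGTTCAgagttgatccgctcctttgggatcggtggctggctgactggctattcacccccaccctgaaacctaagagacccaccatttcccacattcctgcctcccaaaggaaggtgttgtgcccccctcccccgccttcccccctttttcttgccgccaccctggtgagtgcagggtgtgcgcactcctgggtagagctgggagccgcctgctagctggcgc

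In the first DHRS9 window, TATAAA stood at bases -114 to -109 and again at -32 to -27, counted from the start site. TATAAA was also found at the second and the third start of DHRS9, and these letters are present on either strand in 11.5% of 35116 RefSeq promoter windows of this length. The window at the fourth start held AGTTCA on the opposite strand at -218 to -213 and at 33 to 38, and 10.4% of all windows hold that hexamer. The DHRS3 window at the second start held GGTTCA at -172 to -167, and 8.62% of all windows hold it. At the third start of DHRS3, not printed above, AGGTCA stood on the opposite strand at -171 to -166. That hexamer is held by 13.8% of all windows. Among the member windows 5 of 16 held at least 1 such hexamer, against 38.6% of all windows, and the single CYP26B1 window held none. No member window held a pair of hexamers as a direct repeat spaced by 1, 2 or 5 bases, which 0.131%, 0.0399% and 0.0883% of all windows hold. None of these matches overlapped another. The 4 DHRS9 windows were poor in G and C, at 31.3% to 39.3%, with 0 to 4 CG dinucleotides each. The median over all windows was 58.7% G and C with 14 CG dinucleotides. The windows of the other members ranged from 40.3% for ALDH1A1 to 81.7% for ALDH1A3.

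Of the 9 tested enzymes that act on retinol and retinal, the lines did not overlap in 4, against 23.4% of all features tested. These were DHRS9, RDH10, DHRS3 and AKR1B10. DHRS9 was chosen for its difference, so its place among the 4 is no result. DHRS9 oxidizes retinol and also some hydroxysteroids. It had 78.5, 153 and 109 normalized counts in the SW480-NC libraries and 29.5, 21.7 and 18.8 in the SW480-KD1 libraries. Every SW480-KD1 library was below every SW480-NC library. These values rested on 75, 158 and 103 reads in SW480-NC against 28, 24 and 20 in SW480-KD1. The means were 113 ± 37.2 and 23.3 ± 5.53 (SD, n = 3 each), so that 20.6% of the control level was left, a log2 fold change of -2.20 (standard error 0.30). DHRS9 was the most variable member among the controls, with a coefficient of variation of 32.8%. Whichever library was omitted, the difference lay between -2.44 and -1.97 on the log2 scale.

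RDH10 (ENSG00000121039, chromosome 8 of GRCh38, 73294612 to 73325281), the main retinol dehydrogenase of the embryo, fell in SW480-KD1. Its normalized counts were 2376, 2450 and 2271 in SW480-NC and 1718, 1609 and 1680 in SW480-KD1. The groups did not overlap, and replicates of a line lay within a coefficient of variation of 3.80%. The mean went from 2366 ± 89.9 to 1669 ± 55.0 (SD, n = 3 each), to 70.5% of the control level. On the log2 scale limma gave -0.50 with a standard error of 0.07 and an adjusted p of 0.0379, a smaller change than that of DHRS9 in a gene with far more reads. The call was lost in each of the 6 fits that left out 1 library, with adjusted p from 0.0583 to 0.145 in limma, while the log2 fold change stayed between -0.53 and -0.48.

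RDH10 shares its position with genes on the opposite strand, and the counting is not stated to use strand. The antisense gene RDH10-AS1 had 56.5, 48.3 and 46.7 normalized counts in SW480-NC and 21.1, 31.6 and 10.4 in SW480-KD1 (adjusted p = 0.170 from limma). RPL7, a ribosomal protein gene that overlaps the start of RDH10, had 16235, 18125 and 20196 in SW480-NC and 20649, 20416 and 20535 in SW480-KD1. Reads from RDH10 and from these neighbours cannot be told apart where they overlap.

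DHRS3, which works in the reverse direction on retinal and is itself known as a target of retinoic acid, was higher in each SW480-KD1 library. It had 629, 583 and 733 normalized counts in SW480-NC and 949, 1058 and 984 in SW480-KD1, with no overlap. The means were 648 ± 76.6 and 997 ± 55.8 (SD, n = 3 each). At 0.63 (95% interval 0.37 to 0.88), its log2 fold change did not pass, with an adjusted p of 0.0622 from limma. DESeq2 on the recovered reads gave an adjusted p of 5.46e-04, and DHRS3 passed in 4 of the 10 alternatives that kept all libraries and in 0 of the 6 that left out 1. Per kilobase of annotated exon, the level of DHRS3 relative to RDH10 within a library was 0.482 ± 0.0757 in SW480-NC and 1.05 ± 0.0942 in SW480-KD1 (SD, n = 3 each). In SW480-NC the 3 ratios lay between 0.417 and 0.565, and in SW480-KD1 between 0.968 and 1.15. Because DHRS3 was higher and RDH10 lower in every SW480-KD1 library, the ratio had to separate the lines. It restates these differences and is no further result.

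ALDH1A1, which oxidizes retinal to retinoic acid, had nearly the same values in both lines. It had 273, 280.1 and 323 normalized counts in SW480-NC and 278, 279 and 303 in SW480-KD1. Its log2 fold change was -0.02, and the 95% interval of -0.30 to 0.25 leaves room for a modest change in either direction (adjusted p = 0.944 from limma). ALDH1A2, another enzyme of this step, was low in both lines, at 26.9 ± 3.35 and 30.2 ± 4.96 normalized counts (SD, n = 3 each).

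CRABP2 had the highest level of the members per kilobase of exon. Its normalized counts were 8448, 8987 and 10258 in SW480-NC and 10465, 9935 and 9695 in SW480-KD1, so the groups overlapped. On average CRABP2 differed by a log2 fold change of 0.12 (95% interval -0.07 to 0.32, adjusted p = 0.500 from limma). Its relative CRABP1 was at 0 to 2.12 normalized counts in the 6 libraries.

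CYP26B1, which inactivates retinoic acid, was about 2.01-fold higher in SW480-KD1. It had 99.4, 91.7 and 63.6 normalized counts in SW480-NC and 158, 187 and 168 in SW480-KD1. No library of one line reached the range of the other. The means were 84.9 ± 18.8 and 171 ± 14.7 (SD, n = 3 each). The log2 fold change of 1.02 (95% interval 0.56 to 1.48) did not pass in limma, with an adjusted p of 0.0787. Its adjusted p was 0.0866 in edgeR and 0.00216 in DESeq2. CYP26B1 passed in 1 of the 10 alternatives that kept all libraries, DESeq2, and in 0 of the 6 that left out 1. CYP26A1, the related enzyme that retinoic acid induces most strongly in many cells, had no read in any SW480-NC library. Taken alone, a library with a count of 0 still allows an average count of up to about 3 reads. A count of 0 in every SW480-NC library allows less. CYP26A1 had 0, 2 and 2 reads in SW480-KD1.

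The receptors RARA and RARG were both well expressed. RARG had 1154, 1061 and 1130 normalized counts in SW480-NC and 1559, 1376 and 1244 in SW480-KD1, with no overlap. Its log2 fold change of 0.32 (95% interval 0.08 to 0.56) did not pass, with an adjusted p of 0.207 from limma. RARA had 847, 612 and 685 in SW480-NC and 743, 785 and 654 in SW480-KD1, and its groups overlapped. The log2 fold change of RARA was 0.03 (95% interval -0.29 to 0.36, adjusted p = 0.929 from limma). Reads of RARA may include some of its antisense gene RARA-AS1, which was at 20.1 to 41.1 normalized counts. Annotated genes overlap ALDH1A1 and CRABP2 on the opposite strand as well. RARB, itself a common target of retinoic acid, had 0 to 11 reads in a library and was not tested.

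Apart from DHRS9, 1 of the 7 members found was called, RDH10, which was lower. The groups did not overlap in 4 of these 7, namely RDH10, DHRS3, CYP26B1 and RARG. Over all features tested 0.802% were called and 23.4% did not overlap. Their median log2 fold change was 0.12, against -0.0048 over all features tested.

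Levels of different genes were compared per kilobase of annotated exon. This length took in every annotated exon of a gene, also those of transcripts that these cells may not express. The order, and the size of the DHRS3 to RDH10 ratio above, depend on this length. The spread over libraries does not measure that error. In SW480-NC, CRABP2 came first at 8391 ± 845 normalized counts per kilobase (SD, n = 3), followed by RDH10 at 445 ± 16.9. RARG at 218 ± 9.36 and DHRS3 at 214 ± 25.2 came next, and their ranges overlapped. RARA followed at 151 ± 25.4, ALDH1A1 at 103 ± 9.58, DHRS9 at 30.2 ± 9.93 and CYP26B1 at 16.9 ± 3.75. Other neighbours in this order did not overlap, though the lowest DHRS9 library (20.9 per kilobase) was close to the highest for CYP26B1 (19.8 per kilobase). In SW480-KD1 the lower end of the order was exchanged, with CYP26B1 at 34.1 ± 2.92 and DHRS9 last at 6.23 ± 1.48 per kilobase. DHRS3 then stood at 328 ± 18.4 and RDH10 at 314 ± 10.3, and their ranges overlapped.

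To see the members among the rest of their pathway, a list of 86 genes was set up by role. It held 60 genes with a matched row, and 42 of these reached the mean of 10 normalized counts. Leaving out DHRS9, which was chosen for its difference, 1 of 41 was called lower, RDH10, and 0 were called higher, against 0.470% and 0.332% of all features. The median log2 fold change of these 41 was 0.03. Leaving out all members, 34 genes were tested and 0 were called by limma or by edgeR, which called 0.802% and 0.627% of all features. DESeq2 called 2 of the 34, AKR1B10 and TTR, against 3.48% of all features. An unadjusted p under 0.05 in limma was found for 8 of the 34, against 16.2% of all features. The groups did not overlap in 11 of the 34, against 23.4%.

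By role, the 9 tested enzymes of retinol and retinal included AKR1B10, a reductase of retinal and other aldehydes. It was at 12072, 13031 and 13840 normalized counts in SW480-NC and at 9998, 10577 and 10271 in SW480-KD1 (log2 fold change -0.33, adjusted p = 0.0828 from limma). DHRS4 and DHRS4L2 are near-identical copies that can share reads, and their log2 fold changes were -0.03 and 0.01. HSD17B6, a relative of DHRS9 that acts on hydroxysteroids and retinol, was at 18.3 to 20.9 normalized counts in SW480-NC and at 5.42 to 19.8 in SW480-KD1. Of the transport genes, TTR, which carries the retinol-binding protein in blood, had the lowest log2 fold change at -1.09. Its adjusted p was 0.0970 from limma and 0.00587 from DESeq2. RBP4, the cargo of TTR, had the highest log2 fold change of the transport genes at 0.58 (adjusted p = 0.400 from limma).

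Among 13 tested targets of retinoic acid, 0 were called by limma or edgeR, 1 by DESeq2, and 4 had an unadjusted p under 0.05 in limma. The targets share genes with the members. The gene called by DESeq2 is a member described above and is also among these 4, so it is no separate result. Over all features these shares were 0.802%, 0.627%, 3.48% and 16.2%. PLAAT4, a phospholipase that retinoids induce, had the highest log2 fold change of the whole list at 1.67 (standard error 0.37, adjusted p = 0.102 from limma). It had 8.37, 6.76 and 14.8 normalized counts in SW480-NC and 31.6, 32.5 and 33.0 in SW480-KD1, which rested on 7 to 36 reads. RAI14, an actin-binding protein that retinoic acid induces in retinal pigment cells, was lowest at -0.31 (adjusted p = 0.334 from limma). The median over the targets was 0.16.

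Among the remaining roles no gene passed the threshold in limma. In binding, FABP5 was at -0.17 and CRABP2 at 0.12. Among the ester enzymes, DGAT1 was at -0.04 and PNPLA4 at 0.17. BCO1, which cleaves beta-carotene, was at 0.22. CYP2S1 was at -0.15 beside CYP26B1 in clearing. For the receptors, RXRA was lowest at -0.10 and RARG highest, and for the coregulators NCOA1 was at -0.12 and NCOA3 at 0.27. In the oxidation of retinal, ALDH8A1 reached 1.28 (adjusted p = 0.320 from limma) from 3 to 25 reads in a library.

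The genes around DHRS9 on chromosome 2 were examined next. DHRS9 (ENSG00000073737) lies on the plus strand of GRCh38 from 169064789 to 169096167 in GENCODE 29. Of 17 other genes annotated within 500 kb of it, 8 had a matched row and 5 were tested. Of these 5, 0 were called by limma, edgeR or DESeq2, and 2 had an unadjusted p under 0.05 in limma, against 16.2% of all features. Among the protein-coding genes with a row, the nearest was ABCB11, a bile salt exporter on the other strand, which was at 0 to 7.73 normalized counts. The log2 fold changes of the 5 were -0.20 for CERS6, -0.41 for CERS6-AS1, -0.16 for SPC25, -0.20 for FASTKD1 and -0.53 for PPIG. In PPIG the lines overlapped, at 4630, 4592 and 4186 normalized counts in SW480-NC and 2655, 2615 and 4229 in SW480-KD1.

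The profile of DHRS9 over the 6 libraries was compared with those of 9721 named features whose mean reached 50 normalized counts. Likeness was the root mean square difference of log2(normalized count + 1) after each feature was centred on its own mean. The nearest was REG4, a secreted lectin of the intestine, at 0.363 log2 units. It was followed by MRFAP1 at 0.366, the gel-forming mucin MUC5AC at 0.420, the interleukin receptor IL6R at 0.443 and the metalloproteinase MMP10 at 0.484. These genes were picked on the same contrast as DHRS9, so the likeness is a description. REG4 had 7062, 6982 and 8441 normalized counts in SW480-NC and 1600, 1768 and 1668 in SW480-KD1. MRFAP1 had 2767, 6808 and 6738 in SW480-NC and 1561, 1393 and 1518 in SW480-KD1. Like DHRS9, 4 of the 5, MRFAP1, MUC5AC, IL6R and MMP10, had their lowest control value in SW480-NC replicate 1. In MUC5AC the controls lay close together (372, 377 and 379.6 normalized counts). The likeness used every library, so this shared low value follows in part from how the genes were picked and is no result. The part of that library in the likeness was not tested. RDH10 was the member with the nearest profile, at rank 154 and 0.907 log2 units.

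RNA of whole cultures was measured, so fewer cells that express DHRS9 and less DHRS9 RNA per cell cannot be told apart. KRT20 fell in the same libraries as DHRS9 and RDH10, to 57.1% of the control level, and its part in their values was not tested.

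**Figure D1:**
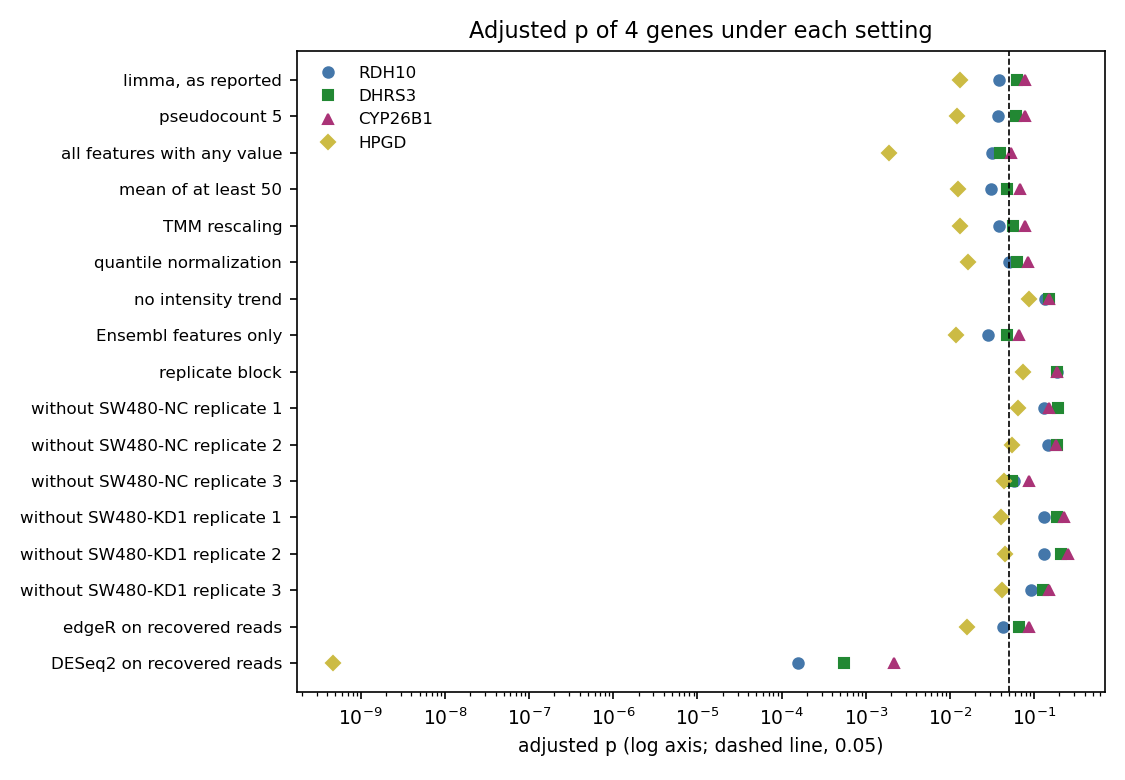
Adjusted p (log axis) of RDH10, DHRS3, CYP26B1 and, from a list of related dehydrogenases, HPGD under each way of processing the values, with a dashed line at 0.05. RDH10 lies left of the line as reported (0.0379) and right of it in all 6 fits that left out a library, DHRS3 and CYP26B1 lie left of it in DESeq2 (5.46e-04 and 0.00216), and HPGD lies left of it in 4 of the 6.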

How the data were processed

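RNA sequencing of SW480-NC and SW480-KD1 was analysed, 3 libraries each, as the genotype labels group them. The values the authors deposited are a signal, namely reads per feature after division by 1 size factor for each library. The submitters' processing notes name bcl2fastq, HISAT2, DESeq2 and the build GRCh38, the paper names Cuffdiff, and the counter is not given in the sources used here. Dividing by the smallest step of each library gave whole reads (within 0.01) for 100.0% of values above 0. Symbols, positions and exon lengths came from GENCODE 29, and promoter sequences from RefSeq. Many loci named by the transcript assembler (33265 features) carry no symbol, so genes merged into them could not be matched.

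Log2(normalized count + 1) was tested with limma 3.58.1 in R 4.3.3, allowing the variance to follow the level. The Benjamini-Hochberg adjustment ran across the 21703 features whose mean reached 10 normalized counts. Alternatives were a pseudocount of 5, other filters and scalings, no trend, Ensembl features only, a replicate block, omission of single libraries, and edgeR 4.0.16 (quasi-likelihood) and DESeq2 1.42.0 on the recovered reads. The steps were tested on simulated data. The members and lists were chosen with earlier results of these data known. Genes were named if they were HPSE, a member, called in a list, the highest or lowest of a role, within 500 kb of DHRS9 or among the 5 nearest profiles. RDH10-AS1, RPL7, RARA-AS1, KRT20 and other genes given with single values were named after their values were seen.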

Additional observations from a re-analysis of the deposited data

How the results depend on the processing

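The log2 fold change of DHRS9 stayed between -2.44 and -1.97 in the 6 fits that left out 1 library and between -2.29 and -2.03 under the other 10 alternatives. The count of called features was 11 without an intensity trend, 12 with the replicate number as a block (replicate block) and 756 in DESeq2, and it ranged from 29 to 93 with 1 library left out. Of the 7 members other than DHRS9, 2 were called when every feature with a value above 0 was tested, with a minimum mean of 50 and with Ensembl features only. The number was 0 with quantile normalization, without a trend and with the replicate block, 3 in DESeq2, and 0 in each fit that left out 1 library. The retinoid list without DHRS9 gave the same numbers as these members under each of these alternatives except DESeq2, where it was 5. With DHRS9 counted, which was chosen on these values, the list held 1 with quantile normalization, 0 without a trend and with the replicate block, 6 in DESeq2, and 0 in each fit that left out 1 library. Leaving out a library lowers the number of samples, and the cause of the other changes was not tested. Near 0 the direction turned in some of these fits. ALDH1A1 ranged from -0.070 to 0.052, the latter without SW480-NC replicate 3. RARA ranged from -0.071 to 0.16 and was below 0 without SW480-NC replicate 2 (-0.071) or SW480-KD1 replicate 2 (-0.023). DGAT1 ranged from -0.14 to 0.026 and was above 0 without SW480-NC replicate 3 (0.0046) or SW480-KD1 replicate 3 (0.026). Same-numbered libraries did not deviate together (r = 0.00246, -0.0202 and 0.00741 across features), and not every library correlated best with its own number, so the numbers were not treated as pairs. The low counts of DHRS9 in SW480-KD1, 20 to 28 reads, limit its precision.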

Other observations

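DHRS9 belongs to the short-chain dehydrogenases, and a list of 20 other members of that family with roles outside retinoids was also examined. Of these, 14 were tested, and 2 were called, both lower in SW480-KD1, where 0.470% of all features tested were called lower. HPGD, which inactivates prostaglandins, had 1360, 1231 and 1304 normalized counts in SW480-NC and 743, 641 and 723 in SW480-KD1. This is a log2 fold change of -0.89 (standard error 0.09) with an adjusted p of 0.0132 from limma, and it passed in 4 of the 6 fits with a library removed. It did not pass without SW480-NC replicate 1 or replicate 2 (adjusted p = 0.0651 and 0.0543 from limma). HSD17B2, which oxidizes estradiol and testosterone to less active forms, had 3470, 4207 and 4179 normalized counts in SW480-NC and 2080, 2568 and 2441 in SW480-KD1. HSD17B2 thus had a log2 fold change of -0.74 (standard error 0.11) with an adjusted p of 0.0397 from limma, and it passed in 0 of these 6 fits. With the replicate block both had an adjusted p of 0.0737 from limma. The median log2 fold change of the 14 was 0.0062, and DHRS2 was highest at 0.78 (adjusted p = 0.134 from limma). In DESeq2 3 of the 14 were called, against 3.48% of all features.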
